A study of Homo sapiens with 6 samples.

Results

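Levels of 10 genes of the fibulin, fibrillin and latent TGF-beta binding protein families were examined in A549 cells, an established line derived from a human lung adenocarcinoma. The 10 genes were EFEMP1, EFEMP2, FBLN1, FBLN5, FBN1, FBN2, LTBP1, LTBP2, LTBP3 and LTBP4, found by symbol among 58174 listed genes. They were selected with their difference between the groups already known, so all values of that difference, counts past a threshold included, are a description and support nothing. PolyA RNA was sequenced from 3 libraries of parental cells (Ctrl) and 3 libraries of A549 cells carrying a CRISPR/Cas9 deletion at MIR21 (MIR21-KO), with no other treatment and with harvest 48 h after seeding. MIR21-KO cells came from single sorted cells, whereas Ctrl cells were the uncloned parental population. How many clones gave rise to these 3 libraries is not given in the sources used here, so the deletion and clonal differences cannot be told apart. The study describes the libraries of a group as independent samples, but whether they were separate clones or separate cultures of the same clone is not given in the sources used here.

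Fibrillins are large secreted glycoproteins that assemble into microfibrils, the scaffold on which elastin is deposited to form elastic fibers. Fibulins bridge elastin, its cross-linking enzymes and microfibrils, and latent TGF-beta binding proteins (LTBPs) hold newly secreted TGF-beta in an inactive complex and tether it to the matrix. Integrins and proteases can then release the growth factor, which signals through its receptors to SMAD proteins. In lung, these proteins give the alveolar wall its elasticity and are made mainly by mesenchymal cells, while EFEMP1 and LTBPs are also found in carcinoma cells.

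Since a miRNA acts on transcripts through its seed, bases 2 to 8, the 3′ UTRs of the 10 genes were searched for matches to the deleted miRNA. The mature miR-21-5p is shown with its seed in capitals, followed by the sites found in a 3′ UTR of LTBP1 and of FBN1, with the matching bases in capitals.
miR-21-5p: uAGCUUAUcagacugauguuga
LTBP1: tggaagagtttATAAGCTtacgttagtat
FBN1: catgtgtgtagcTAAGCTAccttgtcata
The miRNA sequence is from RefSeq (GRCh38.p14), and the sites are from GENCODE 29 transcripts (GRCh38). The LTBP1 match, chr2:33399244-33399250 on the plus strand, pairs with the whole seed. It lies at base 699 of the longest annotated 3′ UTR, which measures 964 bases, and it is also in the 3′ UTR of the transcript with the longest coding sequence. The FBN1 match, chr15:48410771-48410777 on the minus strand, pairs with bases 2 to 7 and is followed by an A. It lies in the 3′ UTR of the transcript with the longest coding sequence, but not in the longest annotated 3′ UTR, which belongs to another transcript. Thus 1 of 10 members held a match of 7 or more bases in the longest 3′ UTR and 2 of 10 in that of the longest coding sequence. Of 18977 protein-coding genes, 12.9% did so in the longest 3′ UTR and 11.0% in that of the longest coding sequence. For EFEMP1, LTBP3 and LTBP4 these letters were in no annotated 3′ UTR. Matches to let-7a-5p, which has another seed, were also counted. It is no neutral comparison, since the study reports let-7 miRNAs as elevated in MIR21-KO cells. Such matches were in the longest 3′ UTR of 2 of 10 members, FBN1 and LTBP2, and of 15.8% of protein-coding genes. In the 3′ UTR of the longest coding sequence they were in 1 of 10 members, LTBP2, and in 13.6% of protein-coding genes. A match is a description of sequence, and binding was not measured.

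Among fibulins, EFEMP1 (fibulin-3, a secreted glycoprotein of basement membranes and elastic tissue) stood far above the parental level in all MIR21-KO libraries. It lies at chr2:55865967-55924139 (GRCh38, minus strand). Its level was 10.7, 10.1 and 10.2 FPKM in Ctrl replicates 1 to 3, and 54.4, 54.3 and 52.0 FPKM in MIR21-KO replicates 1 to 3. FPKM are fragments scaled to gene length and library size, and so allow levels to be compared between genes. The means of 10.3 ± 0.31 and 53.5 ± 1.4 FPKM (SD, n = 3 each) differed 5.19-fold, and on the scale of log2(FPKM + 0.1) the difference was 2.36 (SE 0.065). In bulk RNA, a change in the share of cells that make a transcript cannot be told apart from a change in its amount per cell, and this holds for every value given here.

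FBLN1 (fibulin-1, which binds fibronectin and basement membrane proteins; chr22:45502238-45601135) was only slightly higher. Ctrl libraries had 6.86, 7.95 and 7.02 FPKM, and MIR21-KO libraries had 10.7, 9.95 and 8.29 FPKM. The groups did not overlap, but MIR21-KO replicate 3 was close to Ctrl replicate 2. The log2 difference was 0.40 (SE 0.120), and it was 0.50 without MIR21-KO replicate 3.

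The remaining fibulins were scarce. EFEMP2 (fibulin-4, needed for elastin cross-linking by lysyl oxidase; chr11:65866441-65873592) had 0.087, 0.14 and 0.068 FPKM in Ctrl and 0.39, 0.48 and 0.34 FPKM in MIR21-KO, from 6, 8 and 5 against 29, 32 and 24 reads. All MIR21-KO values were above all Ctrl values, with a 4.17-fold ratio of means. However, the mean level was under the minimum of 0.5 FPKM set for the fit, and EFEMP2 did not pass when that minimum was dropped. Exons of EFEMP2 overlap those of MUS81, a DNA repair nuclease on the opposite strand, which had 5.82 ± 0.22 FPKM in Ctrl and 7.53 ± 0.61 FPKM in MIR21-KO (n = 3 each). Libraries were strand-specific, but the strand setting of the counting is not given in the sources used here, and the origin of these few reads is uncertain. FBLN5 (fibulin-5, which tethers elastin to integrins; chr14:91869412-91947987) had 0.46, 0.28 and 0.24 FPKM in Ctrl and 0.22, 0.30 and 0.53 FPKM in MIR21-KO, and the groups overlapped completely at 15 to 34 reads per library.

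**Figure D1:**
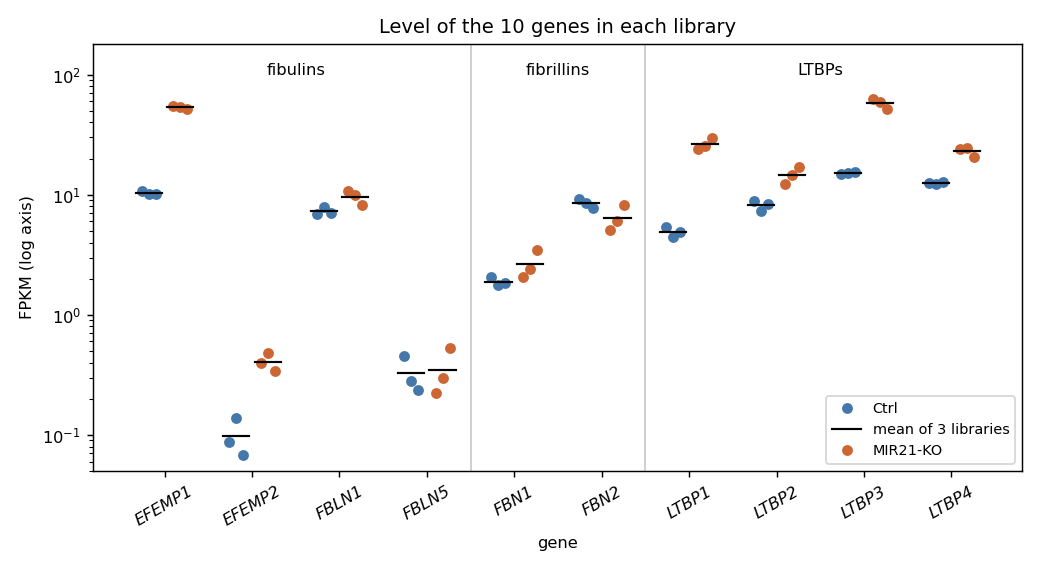
FPKM of each gene (log axis) in 3 Ctrl and 3 MIR21-KO libraries, with points for libraries and lines for means. EFEMP1, LTBP1 and LTBP3 show the widest gaps between groups among genes above 1 FPKM, whereas the groups overlap for FBN2 and FBLN5.

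Both fibrillins were expressed, and their mean differences had opposite signs. FBN1 (fibrillin-1, the main microfibril protein of adult tissue; chr15:48408306-48645849) had 2.06, 1.78 and 1.83 FPKM in Ctrl and 2.07, 2.43 and 3.48 FPKM in MIR21-KO. The lowest MIR21-KO library barely exceeded the highest Ctrl library. The log2 difference of 0.44 (SE 0.203) became 0.24 without MIR21-KO replicate 3, so much of it rested on that library.

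FBN2 (fibrillin-2, more typical of developing tissue; chr5:128257909-128659185) had 9.20, 8.49 and 7.82 FPKM in Ctrl and 5.07, 6.07 and 8.17 FPKM in MIR21-KO. MIR21-KO replicate 3 lay within the Ctrl range and the other two lay below it. The log2 difference was -0.42 (SE 0.176), and it was -0.60 when MIR21-KO replicate 3 was left out and -0.26 when replicate 1 was. Among MIR21-KO libraries, the ratio of FBN2 to FBN1 varied less than either gene, whereas among Ctrl libraries it varied about as much. It was 4.48, 4.78 and 4.27 in Ctrl and 2.45, 2.50 and 2.35 in MIR21-KO, hence the groups were well separated by the ratio although they overlapped for FBN2 itself. This ratio was looked at after the values of both genes had been seen.

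All members of the LTBP family were higher in MIR21-KO cells, but to different degrees. LTBP1 (chr2:32946972-33399509, plus strand), which binds latent TGF-beta and links it to fibronectin and fibrillin, had 5.34, 4.43 and 4.88 FPKM in Ctrl and 24.0, 25.5 and 29.5 FPKM in MIR21-KO. The lowest MIR21-KO library was far above the highest Ctrl library. The means were 4.88 ± 0.46 and 26.3 ± 2.9 FPKM (n = 3 each), a 5.39-fold ratio, and the log2 difference was 2.41 (SE 0.110).

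LTBP3 (chr11:65538805-65558930), which binds latent TGF-beta and promotes its secretion, had the highest mean FPKM of the members in both groups. It had 14.9, 15.2 and 15.5 FPKM in Ctrl and 62.8, 59.5 and 51.5 FPKM in MIR21-KO. The means of 15.2 ± 0.32 and 58.0 ± 5.8 FPKM differed 3.82-fold, with a log2 difference of 1.92 (SE 0.090).

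LTBP4 (chr19:40592883-40629818), which binds TGF-beta less strongly and works with fibulins in elastic fiber assembly, had 12.6, 12.3 and 12.9 FPKM in Ctrl and 23.8, 24.4 and 20.7 FPKM in MIR21-KO. The Ctrl libraries were nearly equal, and the MIR21-KO libraries were clearly above them. The ratio of means was 1.83 and the log2 difference was 0.86 (SE 0.085).

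LTBP2 (chr14:74498170-74612378), the member of the family that does not bind latent TGF-beta, had 8.83, 7.31 and 8.39 FPKM in Ctrl and 12.3, 14.5 and 17.1 FPKM in MIR21-KO. The groups did not overlap, but the MIR21-KO libraries spread more widely than those of LTBP4. The ratio of means was 1.79 and the log2 difference 0.83 (SE 0.138), which ran from 0.71 without MIR21-KO replicate 3 to 0.94 without replicate 1.

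Of the 8 members with a mean of at least 0.5 FPKM, 5 passed an FDR of 0.01 as higher in MIR21-KO (EFEMP1, LTBP1, LTBP2, LTBP3 and LTBP4) and 0 as lower, whereas FBLN1, FBN1 and FBN2 did not pass. Over all genes tested 16.0% passed, 7.66% as higher and 8.38% as lower. In 7 of the 8 all MIR21-KO values were above all Ctrl values, as in 22.8% of all genes tested. The median log2 difference was 0.84 over the 8 members and -0.017 over 16006 genes. Nothing is read from these counts, because the members were selected on this contrast. LTBP2 no longer passed without any 1 of the Ctrl libraries or without MIR21-KO replicate 2. Without MIR21-KO replicate 3, FBLN1 passed as higher and FBN2 as lower.

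The summed level of the family was higher in every MIR21-KO library, and its make-up differed as well. The 10 genes summed to 70.9, 67.9 and 68.8 FPKM in Ctrl and to 195.7, 197.5 and 191.6 FPKM in MIR21-KO, a 2.82-fold ratio of means. By class, the ratio of means was 3.55 for fibulins, 2.99 for LTBPs and 0.876 for fibrillins, whose sums overlapped between groups (9.65 to 11.3 FPKM in Ctrl, 7.14 to 11.7 FPKM in MIR21-KO). EFEMP1 made up 14.9% ± 0.12 of the sum in Ctrl libraries and 27.5% ± 0.33 of that in MIR21-KO libraries (SD, n = 3 each), and LTBP1 went from 7.05% ± 0.50 to 13.5% ± 1.7. LTBP3 went from 21.9% ± 0.86 to 29.7% ± 2.6. In contrast, the share of FBN2 was 12.3% ± 0.83 in Ctrl and 3.31% ± 0.86 in MIR21-KO, and that of LTBP4 was 18.2% ± 0.49 and 11.8% ± 0.86, even though the LTBP4 level itself was higher in MIR21-KO.

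**Figure D2:**
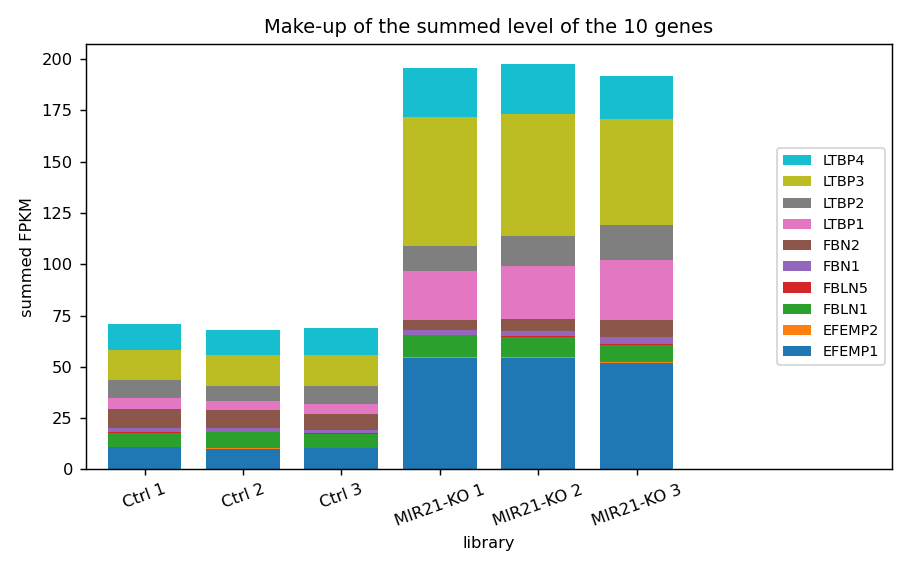
Summed FPKM of the 10 genes in each library, stacked by gene. The 3 MIR21-KO bars reach 191.6 to 197.5 FPKM against 67.9 to 70.9 FPKM for Ctrl, and EFEMP1, LTBP1 and LTBP3 take a larger share of them.

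In Ctrl the order of levels was LTBP3, LTBP4, EFEMP1, then FBN2, LTBP2 and FBLN1 with overlapping ranges, then LTBP1, FBN1, FBLN5 and EFEMP2. In MIR21-KO the ranges of LTBP3 and EFEMP1 overlapped at the top, as did those of LTBP1 and LTBP4 behind them, followed by LTBP2, FBLN1, FBN2 and FBN1 in that order. By mean FPKM, LTBP1 stood at rank 7 in Ctrl and rank 3 in MIR21-KO, and FBN2 at ranks 4 and 7. EFEMP2 and FBLN5 remained at the bottom and overlapped in MIR21-KO. The listed gene lengths behind FPKM were between 1.06 times (LTBP2) and 2.65 times (EFEMP2) the longest coding transcript. What these lengths count is not given in the sources used here. Per kilobase of the longest coding transcript, FBLN1 had 18.3 in Ctrl and so stood above EFEMP1 with 13.5, and LTBP3 remained first with 35.2. On that scale LTBP1 had 30.5 in MIR21-KO and stood behind LTBP4 with 37, and FBN2 had 10.1 in Ctrl and stood behind FBLN1. Differences between groups for 1 gene do not depend on its length.

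The MIR21-KO libraries were not equal for these genes, and the spread had a shape. In MIR21-KO replicate 3, FBLN5, FBN1, FBN2, LTBP2 and LTBP1 were above the mean of the group by 0.54, 0.41, 0.37, 0.24 and 0.17 on the log2 scale, and in replicate 1 the same genes were below it by up to 0.42 (FBLN5). LTBP3, LTBP4 and FBLN1 did the reverse, with -0.16, -0.15 and -0.21 in replicate 3. EFEMP1 hardly varied, with deviations between -0.043 and 0.022. Over all genes tested, the same libraries deviated with base composition. In replicate 3 the median deviation was 0.18 in the 1 of 5 equal gene bins that was lowest in GC and -0.19 in the highest bin, whereas in replicate 1 it was -0.13 and 0.16. LTBP3 (67.8% GC) and LTBP4 (66.7%) lie in the highest bin and deviated in the direction of its medians, LTBP4 by only 0.056 in replicate 1. LTBP2 (57.2%) went against its bin, with -0.24 and 0.24 in replicates 1 and 3 where the medians were 0.083 and -0.11. FBN1 (46.7%) and FBN2 (48.0%) lie in the middle bin, where the medians were 0.010 and -0.010, and deviated far more. The difference between groups ran with GC content too, with a median log2 difference of -0.162 in the lowest bin and 0.105 in the highest. With trends on GC content and length removed from each library, the log2 difference of LTBP3 was 1.77, that of LTBP4 was 0.72 and that of EFEMP1 was 2.43.

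**Figure D3:**
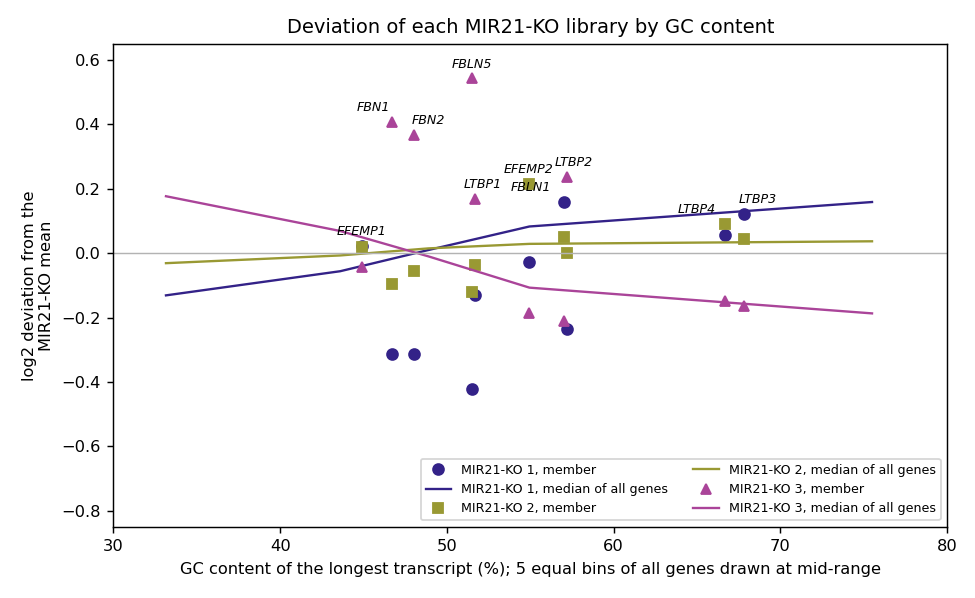
Log2 deviation of each MIR21-KO library from the mean of the group against GC content, with points for the 10 genes and lines for medians of all genes in 5 bins of GC content. LTBP3 and LTBP4 lie on the same side of 0 as the lines, whereas FBN1, FBN2 and FBLN5 lie 0.31 to 0.54 away from 0 in replicates 1 and 3.

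Genes for proteins that build elastic fibers and microfibrils formed a list of 31 partners. This list and the lists below were chosen with earlier results of these data known, so their counts, medians and FDRs are a description. Of 17 partners tested, 5 were higher in MIR21-KO, 0 were lower and 12 did not pass, while 7.66% of all genes tested were higher and 8.38% lower. The median log2 difference was 0.70 against -0.017 over all genes. MFAP2 (MAGP-1), a small microfibril protein that binds fibrillin, rose from 0.627 ± 0.17 to 13.7 ± 1.9 FPKM (log2 difference 4.26, FDR 6.44e-05, limma). FN1 (fibronectin), on which microfibrils and LTBP1 are laid down, rose from 20.2 ± 2.9 to 195.7 ± 36.5 FPKM (log2 difference 3.27, FDR 7.68e-05, limma). The lysyl oxidase LOXL2, a cross-linking enzyme, rose from 51.6 ± 0.87 to 97.7 ± 6.0 FPKM (FDR 0.000381, limma). FURIN, the protease that cleaves profibrillin and pro-TGF-beta, rose from 14.8 ± 0.028 to 29.4 ± 1.4 FPKM (FDR 0.000202, limma). ADAMTS10, a metalloproteinase of microfibrils, rose from 5.07 ± 0.15 to 7.78 ± 0.41 FPKM (FDR 0.00261, limma), but did not pass without any 1 of the Ctrl libraries or without MIR21-KO replicate 2, with FDRs of up to 0.0258 over the alternatives.

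Elastin itself was hardly detectable. ELN had 9, 11 and 12 reads in Ctrl and 9, 5 and 2 in MIR21-KO, which is 0.133 ± 0.024 and 0.062 ± 0.039 FPKM. Neither LOX, the main elastin cross-linker (0.31 ± 0.16 and 0.67 ± 0.19 FPKM), nor MFAP5 (0.039 ± 0.038 and 0.019 ± 0.019 FPKM) reached the minimum for the test. FBLN2, a fibulin outside the 10 genes that binds FBN1 and FN1, had 0.519 ± 0.16 FPKM in Ctrl and 1.24 ± 0.087 FPKM in MIR21-KO and did not pass (log2 difference 1.15, FDR 0.0159, limma). No read was counted for FBN3, ADAMTSL2 and ADAMTSL3 in any library, and these 3 were named after their values had been seen.

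**Figure D4:**
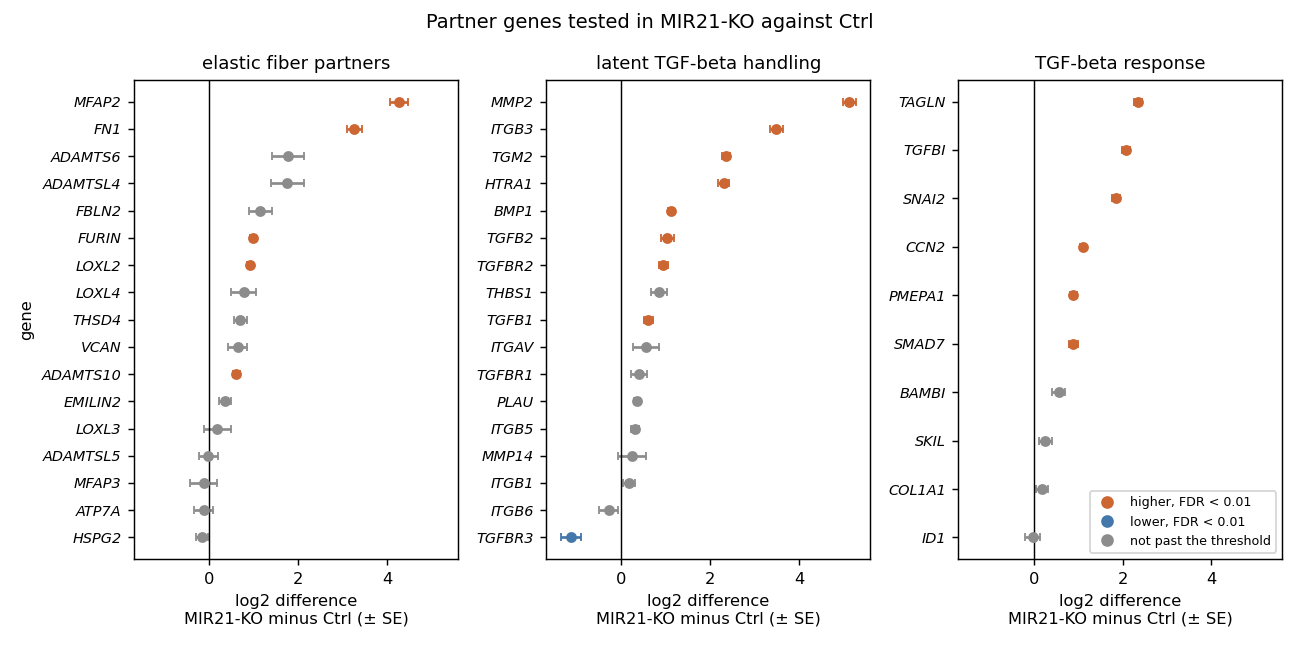
Log2 difference (MIR21-KO minus Ctrl, on log2(FPKM + 0.1)) with its standard error for the tested genes of 3 lists, leaving out 1 gene of the response list. Orange marks genes that passed as higher and blue marks TGFBR3, which passed as lower.

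Genes that keep TGF-beta latent, release it or receive it formed a second list of 25. Of 17 tested, 8 were higher, 1 was lower and 8 did not pass, beside 7.66% higher and 8.38% lower of all genes. The median log2 difference was 0.61 against -0.017 over all genes. Among ligands, TGFB1 rose from 78.7 ± 1.6 to 120.6 ± 13.1 FPKM (FDR 0.00429, limma) and TGFB2 from 13.7 ± 0.98 to 28.5 ± 5.8 FPKM (FDR 0.00312, limma). Both failed to pass without any 1 of the Ctrl libraries or without MIR21-KO replicate 2, with FDRs of up to 0.026 for TGFB1 and 0.0175 for TGFB2 over the alternatives.

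Among tested enzymes that act on latent complexes or matrix, 4 rose, whereas the proteases PLAU (87.4 ± 1.8 and 111.8 ± 5.1 FPKM, FDR 0.0119, limma) and MMP14 (0.489 ± 0.073 and 0.604 ± 0.14 FPKM, FDR 0.585, limma), named after their values had been seen, did not pass. The protease TLL1, also named after its values had been seen, was under the minimum for the test. It had 46, 34 and 20 reads in Ctrl and 0 in each MIR21-KO library. Transglutaminase TGM2, which cross-links LTBPs into the matrix, rose from 104.6 ± 4.3 to 536.4 ± 25.1 FPKM (log2 difference 2.36, FDR 2.5e-05, limma). The protease MMP2, a gelatinase, rose from 0.438 ± 0.085 to 18.5 ± 0.62 FPKM (FDR 1.01e-05, limma). HTRA1, a secreted serine protease, rose from 36.2 ± 2.0 to 179.2 ± 24.6 FPKM (FDR 7.51e-05, limma), and BMP1, which cleaves LTBP1, rose from 15.2 ± 0.55 to 33.0 ± 0.89 FPKM (FDR 0.000125, limma).

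Integrin genes differed among themselves. ITGB3 rose from 1.23 ± 0.10 to 14.95 ± 2.7 FPKM (log2 difference 3.48, FDR 4.93e-05, limma). Its partner ITGAV had 26.8 ± 4.1 FPKM in Ctrl and 41.3 ± 17.4 FPKM in MIR21-KO and did not pass (FDR 0.187, limma). ITGB6, which with ITGAV activates TGF-beta on epithelia, had 1.13 ± 0.097 and 0.917 ± 0.22 FPKM (FDR 0.351, limma). THBS1, a matricellular activator of TGF-beta, had 14.2 ± 1.3 and 26.3 ± 6.5 FPKM (FDR 0.013, limma). The signaling receptor TGFBR2 rose from 46.2 ± 2.5 to 89.4 ± 8.9 FPKM (FDR 0.000865, limma). The co-receptor TGFBR3, named after its values had been seen, fell from 2.16 ± 0.41 to 0.929 ± 0.22 FPKM (FDR 0.0094, limma), but did not pass without any 1 of the Ctrl libraries or without MIR21-KO replicate 1 or 2, with FDRs of up to 0.0417 over the alternatives.

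The last list held 12 genes that TGF-beta is known to induce or repress. Of 11 tested, 7 were higher and 0 were lower, beside 7.66% and 8.38% of all genes, with a median log2 difference of 0.90 against -0.017. TAGLN (transgelin, an actin-binding protein) rose from 12.7 ± 0.94 to 64.8 ± 6.0 FPKM (FDR 4.19e-05, limma), and TGFBI, a secreted adhesion protein, from 207.8 ± 5.5 to 876.2 ± 61.6 FPKM (FDR 4.88e-05, limma). The transcription factor SNAI2 rose from 4.31 ± 0.28 to 15.9 ± 0.58 FPKM (FDR 4.95e-05, limma). CCN2 (connective tissue growth factor) rose from 9.69 ± 0.13 to 21.1 ± 1.2 FPKM (FDR 0.00017, limma). PMEPA1, a feedback inhibitor, rose from 141.1 ± 2.1 to 262.5 ± 3.6 FPKM (FDR 0.000356, limma). The 4 tested genes that did not pass were SKIL, COL1A1, ID1 and BAMBI, named after their values had been seen. ID1, which BMP signals induce, had 130.7 ± 2.3 and 131.0 ± 30.7 FPKM.

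Libraries held 10631667 to 14345209 reads. Over all 16006 genes tested, 2568 passed (1226 higher, 1342 lower), but leaving out Ctrl replicate 1, 2 or 3 gave 918, 933 and 889, leaving out MIR21-KO replicate 2 gave 784, and leaving out MIR21-KO replicate 3 gave 3418. MIR21 had 0 reads in all libraries, so these data do not check its deletion, while VMP1, the gene it overlaps, rose from 75.1 ± 3.8 to 142.5 ± 7.2 FPKM (FDR 0.000473, limma). The 6 epithelial markers were all detected, and their sum was 1684 to 1807 FPKM in Ctrl and 1217 to 1745 FPKM in MIR21-KO. Keratins KRT7, KRT8 and KRT18 had 335.5 FPKM or more in every library, whereas EPCAM had only 0.39 to 1.65 FPKM. Of the 6 markers, 5 did not pass. Among these, KRT18 had 673.4 ± 25.3 FPKM in Ctrl and 422.1 ± 82.2 FPKM in MIR21-KO (FDR 0.0153, limma). KRT19 had 88.3 ± 4.7 and 109.2 ± 22.2 FPKM (FDR 0.206, limma). CDH1 (E-cadherin) fell from 8.18 ± 0.58 to 2.86 ± 0.15 FPKM (FDR 0.000175, limma). The 7 fibroblast markers summed to 4.46 to 4.81 FPKM in Ctrl and 9.22 to 10.4 FPKM in MIR21-KO. Only 2 of them, THY1 and LUM, reached the minimum for the test. THY1 passed (2.28 ± 0.21 to 7.15 ± 1.2 FPKM, FDR 0.00059, limma) and LUM did not (FDR 0.506, limma). Of the other fibroblast markers, COL3A1 had 5, 14 and 8 reads in Ctrl and 55, 45 and 56 in MIR21-KO, and PDGFRB had 1, 3 and 2 against 8, 9 and 15. LUM had 2.11 ± 0.095 and 1.88 ± 0.50 FPKM and PDGFRA had 3 to 13 reads per library, while COL1A2 had 0 and DCN 0 to 3. The 3 endothelial markers summed to at most 0.071 FPKM, and of the leukocyte markers CD3E had 0 reads, PTPRC at most 2 reads and CD14 3.19 to 5.10 FPKM. The part of these marker differences in the values of the 10 genes was not tested.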

How the data were processed

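PolyA RNA-seq data of 3 Ctrl and 3 MIR21-KO libraries were grouped by sample titles. The deposited table gives gene length and FPKM per library, as well as a log2 fold change, p-value and FDR by the authors, which were not used. The submitters' processing notes name hg38, cutadapt 1.14, HISAT2 2.1.0, SAMtools 1.5, featureCounts 1.5.3 and edgeR 3.18.1. The annotation and strand setting are not given in the sources used here. All 6 library columns were assigned.

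Whole reads were recovered from FPKM times length for 100.0% of values (tolerance 0.01 reads). The library sizes behind the deposited FPKM were 0.9497 to 1.0304 times the read sums, so the authors had scaled them. A gene with 0 reads may be present at up to 3 reads' worth, or 0.219 to 0.279 FPKM on 1 kb (counting error only).

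Genes averaging 0.5 FPKM or more were analysed on log2(FPKM + 0.1) by limma 3.58.1 in R 4.3.3 (eBayes, trend and robust, two-sided, no covariate), with calls at a Benjamini-Hochberg FDR under 0.01. The deposited values are FPKM, so the main fit was a linear model on a log scale, and recovered reads were used only in an alternative fit. The procedure was tested on simulated data. The members and gene lists were chosen with earlier results of these data known. Named genes were all members, the up to 6 called genes of each list with the smallest p, and ELN, MFAP2, MFAP5, LOX, FBLN2, FN1, TGFB1, TGFB2, TGFBR2, ITGAV, ITGB6, THBS1, TGM2, MIR21 and VMP1. CCN2 is listed under its older symbol. Values of 1 gene of the response list are not reported here.

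Coordinates and 3′ UTRs (at least 30 bases) were from GENCODE 29. Plots were made in Python 3.11.15 (matplotlib 3.10.9). Alternatives were fits with a replicate block, without each library, with no filter or a minimum of 5 FPKM, pseudocounts of 0.5 and 1, an FDR of 0.05, median-ratio scaling, restriction to protein-coding genes, no trend or robust fitting, voom on recovered reads, and any annotated 3′ UTR. Removal of GC and length trends (lowess, span 0.3) and the 3′ UTR of the longest coding sequence were added after seeing the data.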

Additional observations from a re-analysis of the deposited data

How the results depend on the processing

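The log2 differences of all 8 tested members kept their sign under every alternative run, which says little about stability since the members were selected on this difference. EFEMP1 ranged from 2.27 to 2.43, LTBP1 from 2.21 to 2.47, LTBP3 from 1.77 to 2.0, and LTBP4 from 0.72 to 0.94. The count of all genes that passed was 2568 and became 784 to 3418 when 1 library was left out, 5114 at an FDR of 0.05 and 3960 with GC and length trends removed. Of elastic fiber partners 5 passed, but 9 did so at an FDR of 0.05, 9 among protein-coding genes only, 9 by voom and 8 with GC and length trends removed. With a replicate block, 651 of all genes passed, 5 instead of 9 latent TGF-beta genes (TGFBR2 was among those lost), 4 instead of 5 members (without LTBP2), and 6 of 7 response genes. Deviations of libraries with the same replicate number correlated at -0.171, -0.018 and -0.017. These deviations also carry the GC trends of single libraries, so the correlations cannot decide whether replicates were paired. Median-ratio scaling shifted the median of all genes by -0.006 and moved the share of higher calls from 47.7% to 46.9%. EFEMP2, FBLN5, ELN and MFAP5 were under the minimum of 0.5 FPKM. Without that minimum none of these genes passed (ELN FDR 0.374 and MFAP5 FDR 0.68, limma), and their few reads limit what could be detected.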

Other observations

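Several partners were too scarce for the main fit yet differed in reads, and they were chosen here after their values had been seen. HMCN1 (hemicentin-1, a fibulin family matrix protein) had 25, 20 and 18 reads in Ctrl and 115, 128 and 194 in MIR21-KO, and FBLN7 had 3 reads in each Ctrl library and 33, 23 and 12 in MIR21-KO. LRRC32 (GARP), which anchors latent TGF-beta on the cell surface in place of LTBPs, had 3, 1 and 3 reads in Ctrl and 33, 39 and 20 in MIR21-KO. The BMP1 relative TLL1 went the other way, with 46, 34 and 20 reads in Ctrl and 0 in each MIR21-KO library, which is at least 11.8-fold lower when each MIR21-KO library is set to a floor of 3 reads. In the fit without a minimum level, HMCN1 and FBLN7 did not pass (FDR 0.011 and 0.056, limma). Nor did LRRC32 and TLL1 (FDR 0.0103 and 0.0132, limma). ADAMTS6 and ADAMTSL4, which act on microfibrils, were tested and did not pass, although all MIR21-KO values (0.968 to 1.73 FPKM and 1.12 to 1.64 FPKM) were above all Ctrl values (0.195 to 0.487 FPKM and 0.183 to 0.578 FPKM).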
